A study of Mus musculus with 6 samples.

Results

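The platelet-derived growth factor (PDGF) family was described here by its 7 genes in mouse dental papilla cells (mDPCs), out of 31613 genes in the table: the ligands *Pdgfa*, *Pdgfb*, *Pdgfc* and *Pdgfd*, the receptor kinases *Pdgfra* and *Pdgfrb*, and the receptor-like gene *Pdgfrl*. The family was chosen by *Pdgfrl* and *Pdgfc* being lower in this same contrast, so the members' differences between groups are given as a description with no test. Bulk RNA-seq covered 3 libraries of control mice and 3 libraries of *Dmp1*-Cre;*Setd2* fl/fl mice (called mutant libraries), all at postnatal day 6. All mice were on a C57BL/6J background. The controls carried the floxed *Setd2* alleles without Cre according to the study's methods, while the sample labels name them wild type. *Dmp1*-Cre acts in cells that express *Dmp1*, chiefly the odontoblast layer, whereas the cells collected were dental papilla cells of several kinds. Each library held RNA pooled from 3 biological replicates, and whether pools shared mice is not stated. Fewer mice of each genotype are listed for this collection than 3 pools of separate mice would need, if each biological replicate was 1 mouse. The SDs, and p-values, therefore describe the spread between pools that may not be independent.

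PDGFs are secreted dimers that act on neighbouring cells through a pair of receptor tyrosine kinases. PDGFRA binds the A, B and C chains, and PDGFRB binds chiefly the B and D chains. The A and B chains are cut to their active form mainly inside the cell, while the C and D chains leave the cell with a CUB domain that a protease must remove first. In many tissues the B chain comes from endothelial cells and holds PDGFRB-positive mural cells at the vessel wall, and in the tooth germ the A chain and PDGFRA are known from signaling between epithelium and mesenchyme. PDGFRL resembles the outer, immunoglobulin-like part of the receptors and has no kinase domain.

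The libraries held 18557647 to 19210750 counts each. *Setd2*, the targeted gene, was at 98.0, 96.5 and 92.0 CPM (counts scaled to a common library size) in control replicates 1, 2 and 3, and at 102.1, 98.5 and 96.0 CPM in mutant replicates 1, 2 and 3. Its whole-gene count, taken over all cells collected, did not separate the groups and does not check the genotype labels. Replicate 3 stood apart in both groups. The 12 dental epithelium markers, all detected, summed to 30631 CPM in control replicate 3 against 7413 and 2746 CPM in control replicates 1 and 2, and to 50517 CPM in mutant replicate 3 against 7274 and 2354 CPM in replicates 1 and 2. The libraries labelled dental papilla cells therefore also held transcripts of keratins and enamel proteins. The 12 odontoblast markers (*Dspp*, *Dmp1*, *Col1a1* and others) summed to 73335 to 83831 CPM in control libraries and to 7346, 5373 and 38870 CPM in mutant replicates 1, 2 and 3. Most of these sums was *Col1a1*, at 54159 to 64929 CPM in control libraries and at 4855, 3267 and 29999 CPM in mutant replicates 1, 2 and 3. In such bulk samples, fewer cells of a type and less RNA per cell cannot be told apart. Values for the members are therefore given with and without replicate 3.

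**Figure D1:**
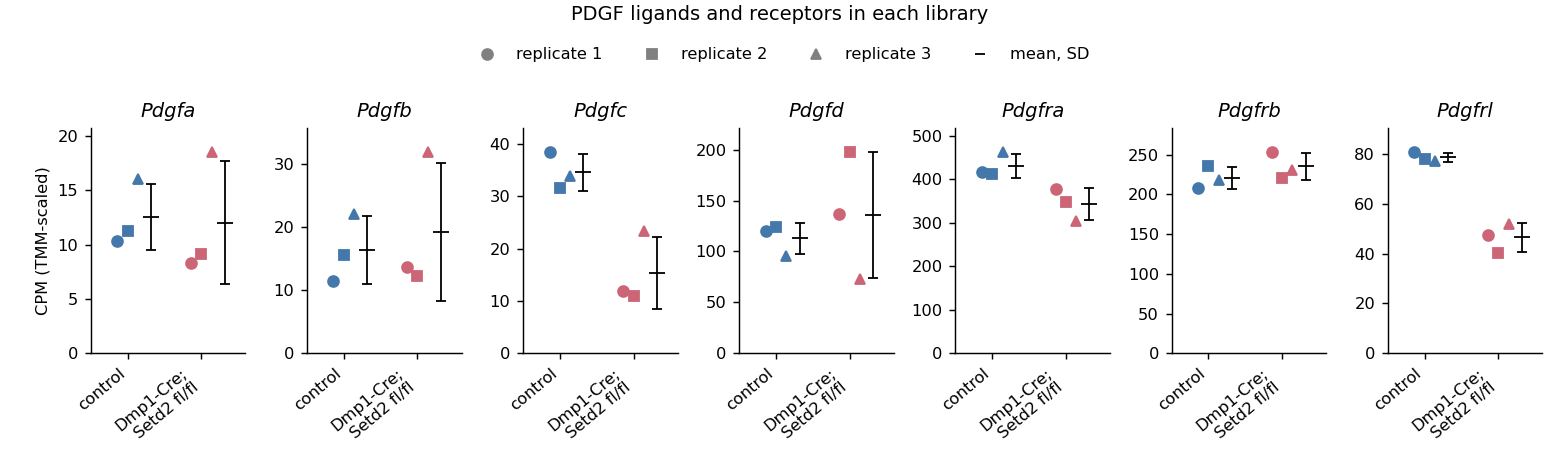
CPM of each PDGF gene (vertical axes from 0, a separate scale for each gene) in each control and Dmp1-Cre;Setd2 fl/fl library, with circles, squares and triangles for replicates 1, 2 and 3 and a bar for the mean ± SD. Pdgfc, Pdgfra and Pdgfrl have no overlap between groups, and the triangles of Pdgfa, Pdgfb and Pdgfd lie on the same side of their group in both genotypes.

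All 7 members entered the fit with the other genes, with 173 to 8171 counts per library. *Pdgfc* and *Pdgfrl* passed as lower (unadjusted p under 0.05 and a fold of 0.58 or more on the log2 scale), so 2 members did, as did 2.71% of the 16519 genes tested. As higher 0 members passed, against 1.10% of genes. Both thresholds are those of the study. In 3 members every mutant library lay below every control library, as in 7.98% of genes, and in 0 members every such library lay above, as in 7.26% of genes. For *Pdgfc* and *Pdgfrl* these counts restate the choice of the family. The other member without overlap was *Pdgfra*, which was not used in that choice. The member nearest the threshold on its inner side was *Pdgfrl* at a log2 fold change of -0.76, and the nearest outside it was *Pdgfra* at -0.33. The members' median log2 fold change was -0.06, beside 0.02 over all genes tested.

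*Pdgfc*, which encodes a CUB-domain ligand of PDGFRA, lies on chromosome 3 from 81036416 to 81214040 on the plus strand of the deposited table, whose positions follow GRCm38. Its level was 38.5, 31.5 and 33.8 CPM in control replicates 1, 2 and 3. It was 11.9, 11.0 and 23.4 CPM in mutant replicates 1, 2 and 3. The groups did not overlap, and replicate 3 was the highest of the mutant libraries. The means were 34.6 ± 3.56 CPM (SD, n = 3) and 15.4 ± 6.90 CPM (SD, n = 3), a log2 fold change of -1.17 (standard error, SE, 0.30), or 0.444 of the control level. Without replicate 3 of either group the log2 fold change was -1.61.

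*Pdgfa*, whose product binds the same receptor, lies on chromosome 5 from 138976014 to 138997370 on the minus strand. It was at 10.3, 11.2 and 16.0 CPM in control replicates 1, 2 and 3 and at 8.32, 9.17 and 18.5 CPM in mutant replicates 1, 2 and 3. The groups overlapped, with the highest value of each in replicate 3, at a log2 fold change of -0.06 (SE 0.34). Without replicate 3 of either group it was -0.29, and with 1 library left out it ran from -0.52 to 0.15. The antisense gene 6330403L08Rik overlaps it with 157 to 218 counts per library against at least 173 for *Pdgfa*. Reads were counted without strand, so reads of the overlapping stretch cannot be assigned to either gene.

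The promoters of these PDGFRA ligands are shown because *Pdgfc* was among the genes that chose the family and *Pdgfa* was not, and because they differ in sequence. Each is the stretch of 250 bases before a RefSeq transcription start in GRCm38.p6, read on the gene's strand, with CpG dinucleotides in capitals.
Pdgfc, chr3:81036166-81036415, plus strand: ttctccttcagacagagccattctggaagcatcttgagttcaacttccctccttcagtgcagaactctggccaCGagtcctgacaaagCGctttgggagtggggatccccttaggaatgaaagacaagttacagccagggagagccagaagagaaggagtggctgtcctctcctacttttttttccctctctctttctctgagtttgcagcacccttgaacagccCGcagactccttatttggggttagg
Pdgfa, chr5:138994945-138995194, minus strand: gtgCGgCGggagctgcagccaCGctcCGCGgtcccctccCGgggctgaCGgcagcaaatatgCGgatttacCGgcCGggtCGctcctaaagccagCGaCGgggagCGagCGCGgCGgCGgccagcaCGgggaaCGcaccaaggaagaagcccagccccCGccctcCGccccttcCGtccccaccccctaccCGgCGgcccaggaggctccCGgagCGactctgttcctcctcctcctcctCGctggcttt
The *Pdgfc* stretch held 3 CpG at 50.8% GC, and the *Pdgfa* stretch held 28 CpG at 72.4% GC, beside medians of 6 CpG and 52.4% GC over 32851 promoters. RefSeq lists another *Pdgfa* start, whose upstream stretch held 19 CpG at 66.4% GC. *Pdgfd* and *Pdgfra* were also listed, with 3 and 4 CpG, so that 4 of the 7 members matched. Motifs were searched on both strands. TGTGGT, a RUNX motif that 14.0% of promoters hold, was found in 0 of these stretches, TATAAA, which 12.4% hold, only in that of *Pdgfd*, and GGGCGG, an SP1 motif that 32.7% hold, only in both of *Pdgfa*.

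*Pdgfb*, the ligand that endothelial cells make, lies on chromosome 15 from 79995874 to 80014977 on the minus strand. It was at 11.5, 15.6 and 22.1 CPM in control replicates 1, 2 and 3 and at 13.6, 12.3 and 31.9 CPM in mutant replicates 1, 2 and 3. Replicate 3 again held the highest value of each group, and the groups overlapped. The log2 fold change was 0.23 (SE 0.42), and -0.05 without replicate 3 of either group, a change of sign.

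*Pdgfd*, the other CUB-domain ligand and one that acts through PDGFRB, lies on chromosome 9 from 6168584 to 6378850 on the plus strand. Its control values were 119.8, 123.6 and 95.6 CPM in replicates 1, 2 and 3, and its mutant values were 136.4, 197.3 and 73.4 CPM. Here replicate 3 was the lowest of each group, the reverse of *Pdgfa* and *Pdgfb*. The log2 fold change was 0.26 (SE 0.34) over all libraries and 0.46 without replicate 3. Leaving out mutant replicate 2 alone turned it to -0.11.

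*Pdgfra*, the receptor of the A, B and C chains and a marker of many mesenchymal cells, lies on chromosome 5 from 75152292 to 75198215 on the plus strand. It was at 417.9, 411.9 and 463.3 CPM in control replicates 1, 2 and 3. It was at 379.0, 347.2 and 305.3 CPM in mutant replicates 1, 2 and 3. The groups did not overlap, the means were 431.0 ± 28.1 CPM (SD, n = 3) and 343.8 ± 36.9 CPM (SD, n = 3), and the log2 fold change was -0.33 (SE 0.12). Replicate 3 carried much of this, as the log2 fold change without it was -0.18.

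*Pdgfrb*, the receptor of the B and D chains and a marker of mural cells among others, lies on chromosome 18 from 61045150 to 61085061 on the plus strand. It was at 208.2, 235.9 and 218.0 CPM in control replicates 1, 2 and 3 and at 253.5, 221.1 and 231.4 CPM in mutant replicates 1, 2 and 3. The groups overlapped and no replicate stood apart. The log2 fold change was 0.09 (SE 0.11), and it stayed between 0.04 and 0.14 when each library was left out in turn, at 0.10 without replicate 3.

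*Pdgfrl*, the receptor-like gene, lies on chromosome 8 from 40926212 to 40990785 on the plus strand and carries no Gene Ontology (GO) term naming PDGF in the deposited table, unlike the other 6 members. Its control values were 80.7, 77.8 and 77.2 CPM in replicates 1, 2 and 3, and its mutant values were 47.3, 40.4 and 52.0 CPM. The control libraries lay close together, with a coefficient of variation of 2.37%, and every mutant library lay well below them. The means were 78.6 ± 1.86 CPM (SD, n = 3) and 46.5 ± 5.82 CPM (SD, n = 3), a log2 fold change of -0.76 (SE 0.12). It ranged from -0.84 to -0.66 when each library was left out in turn, and was -0.85 without replicate 3 of either group.

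Compared by replicate number, *Pdgfc* and *Pdgfrl* were lower in 3 of 3 pairs. With no overlap between groups this holds under any pairing, and both genes chose the family. The *Pdgfc* differences (log2 CPM, mutant minus control) were -1.69, -1.51 and -0.53 for pairs 1, 2 and 3. Those of *Pdgfrl* were -0.77, -0.94 and -0.57. *Pdgfra*, also without overlap, was lower in each pair, at -0.14, -0.25 and -0.60, with its largest difference where *Pdgfc* had its smallest. *Pdgfa*, *Pdgfb*, *Pdgfd* and *Pdgfrb* had pairs of both signs.

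Levels of different genes were compared per kb of exon length. In control libraries the receptors stood above the ligands, in the order *Pdgfra* (35.0 ± 2.28 CPM per kb), *Pdgfrb* (27.3 ± 1.73), *Pdgfrl* (19.9 ± 0.472), *Pdgfd* (12.3 ± 1.64), *Pdgfc* (5.17 ± 0.531), *Pdgfb* (3.86 ± 1.26) and *Pdgfa* (1.85 ± 0.449), each as SD with n = 3. Of neighbours in this order, only *Pdgfc* and *Pdgfb* had overlapping ranges. In mutant libraries *Pdgfrb* came first at 29.1 ± 2.05 CPM per kb and *Pdgfra* next at 27.9 ± 3.00, with overlapping ranges. *Pdgfd* (14.7 ± 6.72) and *Pdgfrl* (11.8 ± 1.48) followed and overlapped. *Pdgfb* (4.54 ± 2.57), *Pdgfc* (2.30 ± 1.03) and *Pdgfa* (1.78 ± 0.837) came last, each overlapping its neighbour in range. *Pdgfrl* thus stood above *Pdgfd* in 3 of 3 control libraries, and in mutant libraries *Pdgfd* stood above *Pdgfrl* in 2 of 3. The order depends on the length used, since per coding kb *Pdgfd* was second in controls (87.2 CPM per coding kb) behind *Pdgfra* (118.4) and first in mutant libraries (104.7).

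**Figure D2:**
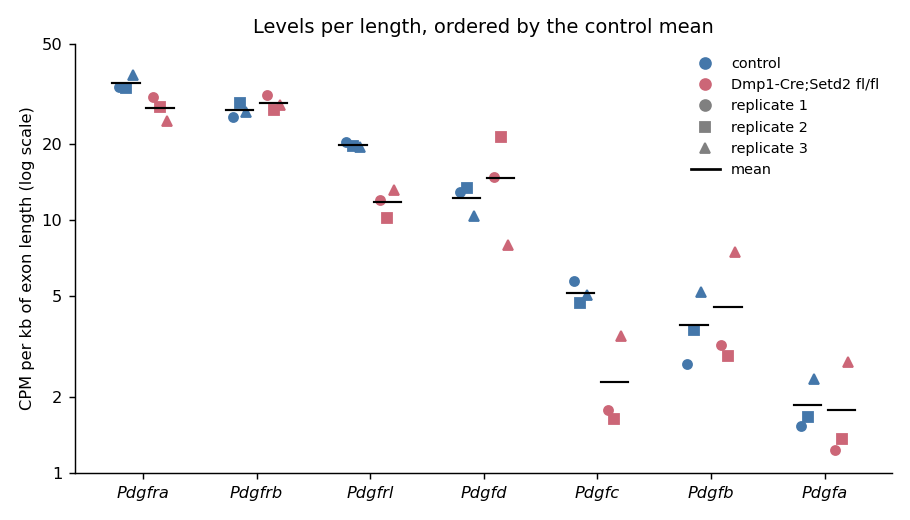
CPM per kb of exon length (log scale) of each member, ordered by the control mean, with 1 symbol per library (circles, squares and triangles for replicates 1, 2 and 3) and a line at each group mean. Pdgfra leads in control libraries at 35.0, and in Dmp1-Cre;Setd2 fl/fl libraries it overlaps with Pdgfrb, while Pdgfc has means of 5.17 and 2.30.

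The make-up of the ligand transcripts followed these levels. *Pdgfc* made up 25.0%, 20.1% and 22.0% of the summed per-length level of the 4 ligands in control replicates 1, 2 and 3. In mutant replicates 1, 2 and 3 it made up 8.43%, 6.00% and 16.1%. The sum itself was 23.1 ± 0.274 CPM per kb (SD, n = 3) in controls and 23.3 ± 3.45 (SD, n = 3) in mutant libraries, so the mean total was similar. Among the 4 ligands only the share of *Pdgfc*, a gene that chose the family, did not overlap between groups. *Pdgfd* held 56.6%, 57.2% and 45.2% of the sum in controls and 70.4%, 78.4% and 36.7% in mutant libraries. In mutant replicate 3 *Pdgfb* took 34.6%, close to *Pdgfd*. Of the summed level of the 2 receptor kinases, *Pdgfra* made up 53.4% to 58.3% in control libraries and 46.5% to 50.8% in mutant libraries, with no overlap.

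**Figure D3:**
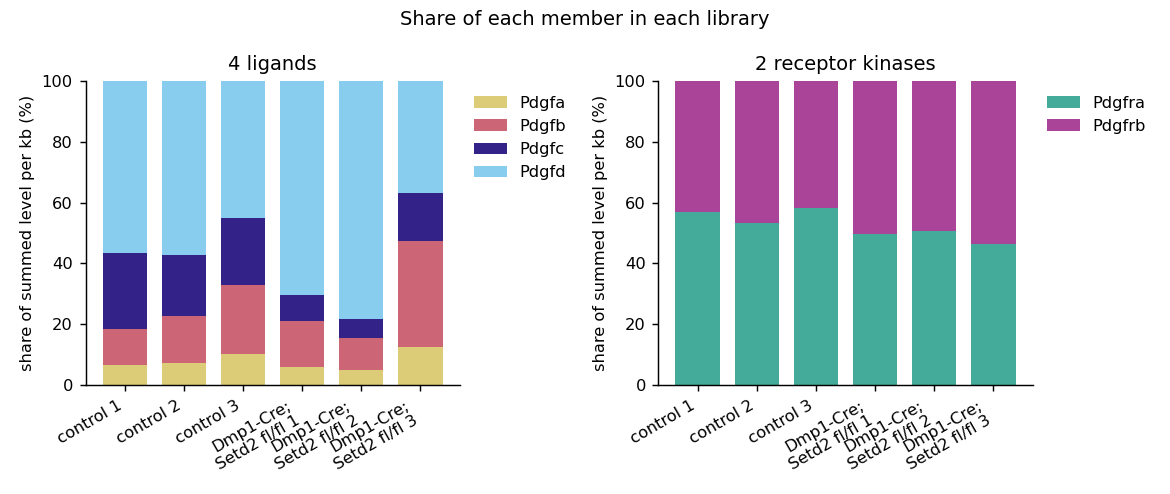
Share (%) of each member in the summed level per kb of the 4 ligands (left) and of the 2 receptor kinases (right), with 1 stacked bar per library. Pdgfc takes 20.1% to 25.0% of the ligand bars in controls and 6.00% to 16.1% in Dmp1-Cre;Setd2 fl/fl libraries.

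Markers of cell types were set beside the members, as the mean log2 CPM of each list relative to the control mean. The odontoblast list stood at -2.52, -3.17 and -0.97 in mutant replicates 1, 2 and 3, and 8 of its 12 genes passed these thresholds as lower, against 2.71% of genes. edgeR called 0 of the 12 at an adjusted p under 0.05, with 9 at an unadjusted p under 0.05 (4 with the replicate block), as had 7.58% of all genes. DESeq2 called 3 as lower and voom 9, beside 0.708% and 5.67% of all genes. Without replicate 3 of either group edgeR called 8 as lower at an adjusted p under 0.05, beside 4.48% of all genes. *Pdgfc* stood at -1.53, -1.64 and -0.56 in the same libraries. Its smallest deficit was in replicate 3, the mutant library with the most odontoblast marker RNA. *Pdgfrl* stood at -0.73, -0.96 and -0.60. *Pdgfra* went the other way, at -0.18, -0.31 and -0.50, with its largest deficit in replicate 3. The part of the odontoblast markers in the members' values was not tested.

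*Pdgfb* and *Pdgfa* were highest in replicate 3 of each group, as were some marker lists. *Pdgfa* stood at -0.25, -0.13 and 0.38 in control replicates 1, 2 and 3 and at -0.56, -0.42 and 0.59 in mutant replicates 1, 2 and 3. The endothelial list, 12 of 12 genes tested, stood at -0.25, -0.07 and 0.32 in control replicates 1, 2 and 3 and at -0.19, -0.10 and 1.00 in mutant replicates 1, 2 and 3. *Pdgfb* stood at -0.46, -0.02 and 0.48, and at -0.21, -0.36 and 1.01. Both were highest in replicate 3 of each group, as were the dental epithelium list, at 1.11 and 1.53, and the mural cell list. Between replicates 1 and 2, *Pdgfb* and the endothelial list had the same order in controls and opposite orders in mutant libraries. The endothelial markers summed to 419.3 to 656.4 CPM in control and 426.7 to 1040 CPM in mutant libraries.

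*Pdgfd* ran the other way, with the macrophage list. Those 12 markers summed to 897.9 to 1501 CPM in control and 709.7 to 2354 CPM in mutant libraries, lowest in replicate 3 of each group and highest in replicate 2, as *Pdgfd* was. The mural cell list, with 9 of 12 genes tested, summed over all 12 genes to 898.5 to 961.0 CPM and 1002 to 1117 CPM. Its mean over the tested genes was highest in replicate 3 of each group, at 0.17 and 0.41, where *Pdgfrb*, the receptor of mural cells, stood at -0.02 and 0.07. The platelet and megakaryocyte list, with 4 of 10 genes tested, summed over the 9 genes found to 79.5 to 93.7 CPM and 76.6 to 108.8 CPM. The glia and Schwann cell list, with 7 of 8 genes tested, summed over all 8 genes to 32.7 to 48.0 CPM and 31.2 to 46.0 CPM. No list had a gene at 0 in every library, and of the genes in these lists outside the odontoblast list 0 passed the thresholds in either direction by edgeR, with 1 at an unadjusted p under 0.05. The part of these cell types in the members' values was not tested.

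**Figure D4:**
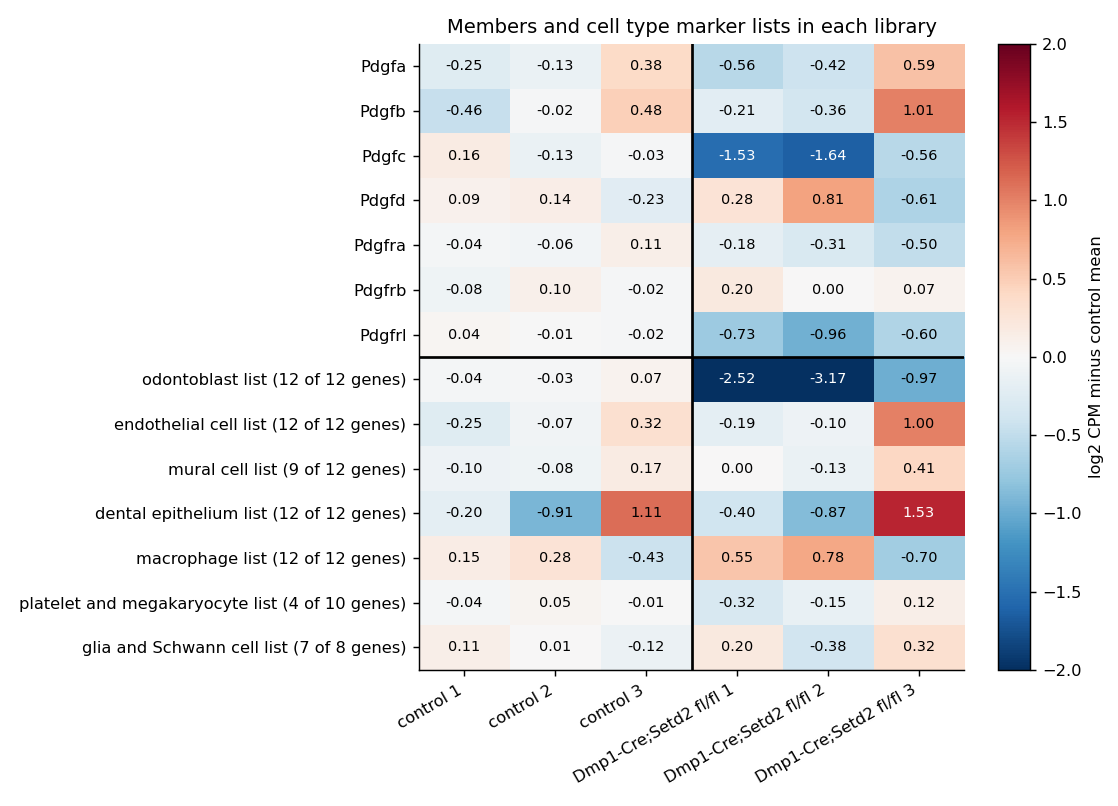
Log2 CPM minus the control mean for each member (upper rows) and the mean of each marker list (lower rows) in the 6 libraries, with the value printed in each cell and the colour scale ending at -2 and 2. Pdgfc is lowest where the odontoblast list is lowest, and Pdgfa and Pdgfb are highest in replicate 3 of both groups.

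The genes whose profile over the 6 libraries came nearest to *Pdgfc*, among 10484 genes with a mean of at least 10 CPM, were *Rcan2*, *Galnt5*, *Nes*, *Ablim3* and *Cystm1*, at root mean square differences of 0.109 to 0.139 log2 units. *Rcan2* stood at -1.44, -1.56 and -0.42 in mutant replicates 1, 2 and 3. *Nes*, which encodes the filament protein nestin and is in the odontoblast list, stood at -1.49, -1.72 and -0.64. Nearest to *Pdgfrl* were *Drp2*, *Adamts12*, *Trim2*, *Bmp1* and *Loxl3*, at 0.091 to 0.106 log2 units. Of these, *Bmp1* encodes a protease that cleaves procollagen, and it stood at -0.54, -0.98 and -0.43. *Loxl3*, a lysyl oxidase of the matrix, stood at -0.54, -0.94 and -0.53.

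The genes around the ligands and receptors were described from 9 pathway lists without the members, with 138 of 140 listed genes tested. Of these, 6 were lower and 3 higher by these thresholds in edgeR's quasi-likelihood test, or 4.35% and 2.17%, beside 2.71% and 1.10% of all genes. Of the 138, 26 had an unadjusted p under 0.05, against 7.58% of all genes. With p adjusted over the whole table at a threshold of 0.05, edgeR called 0 of the 138, as it called 0 of all genes (0%). DESeq2 called 4 (*Pcsk5*, *Sparc*, *Grb14* and *Socs3*), and voom with quality weights called 14 lower and 7 higher. Over all genes DESeq2 called 0.708% lower and 0.145% higher, and voom 5.67% and 2.27%. At the same adjusted threshold edgeR called 6 pathway genes lower and 1 higher without mutant replicate 3, beside 2.65% and 0.676% of all genes. It called 10 lower and 4 higher without replicate 3 of either group, beside 4.48% and 2.33%. With the replicate number as a block it called 0 of them, beside 0.799% of all genes as lower and 0.176% as higher. By unadjusted p and fold, the block left 3 lower and 3 higher, beside 4.37% and 2.05% of genes, with *Ctgf* in place of *Myc* among the higher. Without replicate 3 of either group, 12 were lower and 5 higher, beside 7.55% and 4.49% of genes. The lists' median log2 fold change was 0.05 in all, beside 0.02 over all genes.

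Among genes that release and activate PDGF ligands, 1 of 9 was lower and 0 higher. This was *Pcsk5*, a proprotein convertase of the family that cuts the A and B chains. It was at 212.9, 218.1 and 232.4 CPM in control replicates 1, 2 and 3 and at 55.5, 46.1 and 126.4 CPM in mutant replicates 1, 2 and 3. No library of one group reached the other, at a log2 fold change of -1.54 (SE 0.37; adjusted p = 0.578 by edgeR and 0.00557 by DESeq2). With the replicate block edgeR gave *Pcsk5* an adjusted p of 0.123. Without replicate 3 of either group, a fit chosen after seeing the data, the adjusted p by edgeR was 2.18e-05. Among ligand-binding proteins and co-receptors, 1 of 11 was lower and 0 higher. *Sparc*, a matrix protein that binds PDGF, averaged 12384 ± 835.4 CPM (SD, n = 3) in controls and 4602 ± 2888 CPM (SD, n = 3) in mutant libraries, with no overlap (log2 fold change -1.43, SE 0.42, adjusted p = 0.625 by edgeR, 0.0230 by DESeq2).

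Downstream of the receptors few genes passed. Of 26 adaptors and enzymes that bind the receptor or act next to it, 1 was lower, the adaptor *Grb14*, from 82.0 ± 13.5 to 32.4 ± 18.4 CPM (SD, n = 3 each; log2 fold change -1.34, adjusted p = 0.625 by edgeR). With the replicate block its unadjusted p was 0.0753. Of 16 genes that shut the receptor off, 1 was higher. This was *Socs3*, an inhibitor of cytokine receptor signaling, at 11.5, 8.63 and 12.4 CPM in control replicates 1, 2 and 3 and at 19.2, 18.5 and 17.9 CPM in mutant replicates 1, 2 and 3. Those groups did not overlap and replicate 3 did not stand apart (log2 fold change 0.77, SE 0.17, adjusted p = 0.558 by edgeR, 0.0231 by DESeq2).

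Of 22 PI3K and AKT genes and 19 RAS and MAPK genes, 0 passed in either direction by edgeR, with 1 and 3 at an unadjusted p under 0.05 but short of the fold. The smallest p belonged to *Inppl1*, a lipid phosphatase, at a log2 fold change of -0.29 (adjusted p = 0.650), and to *Araf*, a RAF kinase, at -0.39 (adjusted p = 0.648). *Akt1* was at 312.4 ± 43.7 and 336.3 ± 22.3 CPM in the respective groups (SD, n = 3 each), with a log2 fold change of 0.11 (SE 0.13). *Akt2* had a log2 fold change of -0.01 (SE 0.10). These are transcript levels and carry no information on phosphorylation.

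Of 21 early response genes, which growth factors switch on within minutes in culture, 2 were lower and 2 higher. *Egr1* was at 162.0, 173.4 and 27.7 CPM in control replicates 1, 2 and 3 and at 34.9, 18.1 and 37.8 CPM in mutant replicates 1, 2 and 3. Control replicate 3 thus lay within the range of the other group (log2 fold change -2.00, SE 0.67, adjusted p = 0.626). *Egr3* was at 44.6, 43.3 and 54.3 CPM and at 3.73, 2.92 and 24.5 CPM, with no overlap (log2 fold change -2.19, SE 0.79, adjusted p = 0.633). With the replicate block both missed an unadjusted p of 0.05, at 0.255 and 0.0657. By DESeq2 the adjusted p-values of *Egr1* and *Egr3* were 0.329 and 0.418. Without replicate 3 of either group, the fit chosen after seeing the data, they were 0.00158 and 3.96e-06 by edgeR. *Klf6* averaged 118.5 ± 10.4 and 197.7 ± 77.9 CPM, and *Myc* 18.6 ± 2.74 and 27.9 ± 8.01 CPM (SD, n = 3 each), with overlapping groups and log2 fold changes of 0.74 and 0.58. *Klf6* missed the thresholds in every fit that left out 1 library other than mutant replicate 3, or 5 of 6, as did *Egr3*. *Myc* missed them in 4 of 6 and *Egr1* in 3. With the block *Myc*, at 0.56, was short of the fold. The members of the list thus had calls of both signs.

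Of 8 VEGF ligands and receptors, which belong to the same growth factor superfamily, 1 was lower and 0 higher. *Vegfa*, the main growth factor of blood vessels, was at 137.6, 132.5 and 139.6 CPM in control replicates 1, 2 and 3 and at 92.0, 63.9 and 117.2 CPM in mutant replicates 1, 2 and 3 (log2 fold change -0.59, SE 0.21, adjusted p = 0.626). Its fold lay next to the threshold, and it missed the thresholds in 5 of 6 fits that left out 1 library. Of 6 other class III receptor kinases and their ligands tested, 0 passed by edgeR, with 0 at an unadjusted p under 0.05, and the smallest p was that of *Kit* at a log2 fold change of 0.25 (adjusted p = 0.667).

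**Figure D5:**
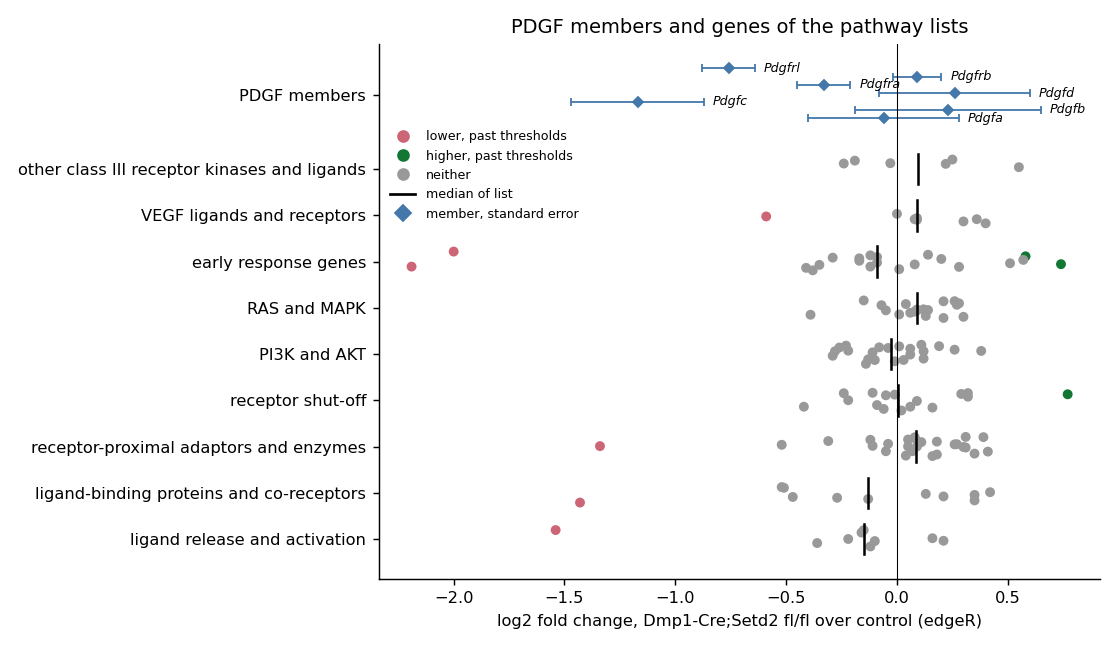
Log2 fold change (edgeR, Dmp1-Cre;Setd2 fl/fl over control) of the 7 members with their standard errors (top) and of each gene in the 9 pathway lists, with a line at each list's median and colours for genes past the thresholds. The 6 lower and 3 higher genes lie in 6 lists, and the list medians lie between -0.15 and 0.10.

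The deposited annotation names PDGF in a GO term of 98 further genes, 81 of them tested. By these thresholds 6 were lower and 0 higher, or 7.41% and 0%, beside 2.71% and 1.10% of all genes, and edgeR called 0 at an adjusted p under 0.05, with 16 at an unadjusted p under 0.05, as had 7.58% of all genes. DESeq2 called 4 of them as lower, beside 0.708% of all genes, and voom 11 lower and 4 higher, beside 5.67% and 2.27%. Without replicate 3 of either group edgeR called 10 lower and 4 higher, beside 4.48% and 2.33% of all genes. *Col1a1* and *Col1a2* encode the chains of type I collagen and carry the term PDGF binding, and *Col1a1* is also in the odontoblast list. Their log2 fold changes were -2.20 and -1.64. Both missed the thresholds in 5 of 6 fits that left out 1 library and with no filter on low counts, and passed without mutant replicate 3, at -3.85 and -2.78. *Lox*, which crosslinks collagen, was at 285.5, 280.3 and 280.2 CPM in control replicates 1, 2 and 3 and at 50.7, 59.2 and 156.3 CPM in mutant replicates 1, 2 and 3 (log2 fold change -1.67, SE 0.43, adjusted p = 0.625 by edgeR, 0.00692 by DESeq2). *Slc9a3r1*, a scaffold protein that binds PDGF receptors, averaged 34.0 ± 5.13 and 15.5 ± 5.75 CPM (SD, n = 3 each), with no overlap (log2 fold change -1.13, adjusted p = 0.558, and 0.0167 with the replicate block). *Plekha1*, a lipid-binding adaptor, had a log2 fold change of -0.65 (adjusted p = 0.558) and missed the thresholds in 1 of those 6 fits, and *Vegfa* is described above.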

How the data were processed

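RNA of 3 libraries per group was analysed from 1 table. It holds raw counts per gene, deposited without normalization, for which the authors used HISAT2 and HTSeq and ignored strand. Bowtie2, DESeq2 and GRCm39 also stand in the submitters' processing notes. The positions in the table, however, overlap the RefSeq GRCm38.p6 gene of the same name for 99.86% of genes and the GRCm39 gene for 13.2%. Columns of the authors' own comparison (fold changes and p-values) were not used.

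edgeR 4.0.16 in R 4.3.3 was fitted across all genes with its robust quasi-likelihood F test after TMM scaling and filterByExpr (minimum count 10), and p-values were adjusted by Benjamini-Hochberg over 16519 genes. The spread between libraries was 25.3% (coefficient of variation at the common dispersion), well above counting error at this depth. A prior count of 2 went into log2 CPM. Levels per kb use exon lengths of GENCODE vM39, matched by gene ID.

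The members and lists were chosen with earlier results of these data known. Named genes were the members, in each list those past the thresholds the study used, p under 0.05 before adjustment with 0.58 or more in log2 fold (at most 4, by p) or else the gene with the smallest p, the AKT kinases (1 of them is not reported here), every gene past the thresholds among those with a GO term naming PDGF, and the 5 genes nearest to *Pdgfc* and to *Pdgfrl*. *Setd2* was read as the targeted gene.

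Alternatives were DESeq2 1.42.0, limma 3.58.1 voom with quality weights, other scalings and filters, the replicate number as a block, and each library left out. Replicate 3 left out of both groups, and coding length, were chosen after seeing the data. Replicate numbers come from the labels. Libraries of the same number deviated together from their group means, with correlations over genes of 0.453, 0.465 and 0.663. Control replicate 2 and *Dmp1*-Cre;*Setd2* fl/fl replicate 1 correlated at 0.455, so these values do not settle the matching of replicates 1 and 2. The main edgeR fit had no block. Libraries of the same number were treated as pairs only in the replicate block and in the comparison by replicate number. Outliers were not sought in groups of 3.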

Additional observations from a re-analysis of the deposited data

How the results depend on the processing

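The members' log2 fold changes moved by less than the spread between libraries under other scalings, filters, DESeq2, the replicate block and each left-out library. The exceptions were *Pdgfra* at -0.17 by voom with quality weights, and *Pdgfc* at -1.61 and *Pdgfra* at -0.18 without replicate 3 of both groups. With 1 library left out *Pdgfc* ran from -1.60, without *Dmp1*-Cre;*Setd2* fl/fl replicate 3, to -0.98. The -1.60 fell only just within that spread. The number of lower pathway genes, 6, was 3 with the replicate block, 3 to 12 with 1 library left out (12 without *Dmp1*-Cre;*Setd2* fl/fl replicate 3, 3 without its replicate 2), 12 without replicate 3 of both groups and 0 at an adjusted p under 0.05. The number of higher pathway genes, 3, was 1 to 6 with 1 library left out, 1 without control replicate 1 or 2 or *Dmp1*-Cre;*Setd2* fl/fl replicate 1 or 2, 5 without replicate 3 of both groups and 0 at an adjusted p under 0.05. The replicate block ended the calls of *Grb14*, *Egr1*, *Egr3* and *Myc* and changed no other named gene's side of the thresholds. It gave *Slc9a3r1* an adjusted p of 0.0167 by edgeR. The genes nearest to *Pdgfc* and to *Pdgfrl* were picked by their values in these libraries, so no adjusted p is given for them. Per coding kb, 5 of 7 members kept their place in the order of levels in either group, and with 1 *Dmp1*-Cre;*Setd2* fl/fl library left out 5 to 7 did. Without division by length the control share of *Pdgfc* among ligands was 19.6%, and that of *Pdgfra* among receptor kinases was 66.1% in controls and 59.3% in *Dmp1*-Cre;*Setd2* fl/fl libraries. Single named genes kept their side of the thresholds in 373 of 420 alternative values and lost it in 47. The cause of these changes was not tested. Coding length from RefSeq proteins was not run. Each group had 3 pooled libraries, replicate 3 differed in cell type markers in both, and protein and phosphorylation were not measured here.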
